A study of Mus musculus with 6 samples.

Results

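Secreted Wnt modulators were followed by bulk RNA sequencing in B16 tumours. B16 is a melanoma line from the mouse, labelled here as wild type (WT). The 10 members were taken by gene symbol: Sfrp1, Sfrp2, Sfrp4, Sfrp5, Frzb, Dkk2, Dkk3, Wif1, Notum and Rspo3, out of 34665 genes in the count table, and each symbol had 1 row. Treatment in the group ICI was an immune checkpoint inhibitor alone (replicates 1, 2 and 3), and in the group RT_ICI radiation and the inhibitor (replicates 1, 2 and 4), so the inhibitor is common to both groups and untreated tumours are not analysed here. Host strain and age, radiation dose, what the inhibitor blocks, harvest time and whether the sampled tumour lay in the irradiated field are not given in the sources at hand. Whether each library stands for its own animal is not labelled, and p-values therefore reflect only spread among these 6 libraries, which may be technical. The title of the series concerns fibroblasts marked by Sfrp2 in the niche around vessels, and the comparison asks whether this gene and its relatives differed when radiation was added.

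Wnt proteins are lipid-modified secreted ligands that bind Frizzled receptors together with the co-receptors Lrp5 and Lrp6, and so stabilise beta-catenin. The secreted Frizzled-related proteins (Sfrp1, Sfrp2, Sfrp4, Sfrp5 and Frzb, also called Sfrp3) carry a cysteine-rich domain like that of the receptors and can bind Wnt ligands. Wif1 also binds Wnt ligands, Notum removes their lipid, Dkk2 binds Lrp5 and Lrp6, and Dkk3 is a divergent member of the dickkopf family. Rspo3 enhances Wnt signalling by protecting Frizzled receptors from the ubiquitin ligases Znrf3 and Rnf43. In many tissues fibroblasts and other mesenchymal cells are a main source of Sfrp transcripts.

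The libraries held 22543721 to 45624013 counts. Levels are CPM, the usual count relative to library size, scaled by the TMM factors of edgeR. The melanocyte markers fixed for the check of the label were present in every library, with a summed level of 13948 to 15842 CPM in ICI and 10608 to 15133 in RT_ICI. Markers of other cells moved with library as well as group, given here in the order of the replicates above. The 8 adipocyte genes summed to 0.805, 0.679 and 26.5 CPM in ICI and 79.9, 59.9 and 67.6 in RT_ICI. Cfd and Plin4 took most of that sum, at 39.3 and 30.4 CPM in RT_ICI replicate 1. Adipoq, Plin1 and Lep were highest in ICI replicate 3, and the other adipocyte genes in an RT_ICI library. The 8 skeletal muscle genes summed to 209, 168 and 2.53 CPM in ICI and 2169, 956 and 16.8 in RT_ICI. Of 16924 genes tested, 9.18% were called at an adjusted p under 0.05 (4.46% higher and 4.72% lower in RT_ICI), and in 37.2% the 3 and 3 libraries did not overlap. The calls were 754 higher and 799 lower, and 1046 and 497 with upper-quartile scaling. Mitochondrially encoded genes took 4.39, 5.01 and 4.39% of the counts in ICI and 14.7, 12.7 and 11.5% in RT_ICI, without overlap.

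None of the 10 members was called. Only Sfrp1, Sfrp2, Frzb and Dkk3 passed the filter on low counts, and 0 of these 4 had an adjusted or an unadjusted p under 0.05 in edgeR's quasi-likelihood test, against 9.18% and 31.5% of all tested genes. DESeq2 and limma-voom also called 0 of the 4, although limma-voom put Sfrp2 at an unadjusted p of 0.0462 (log2 fold change 1.88, adjusted p = 0.150). The other 6 members had too few counts for the test. With no filter all 10 were fitted and 0 were called, with 1 (Sfrp5) at an unadjusted p under 0.05. Ranges of the ICI and RT_ICI libraries overlapped for all 10 members, against the 37.2% of tested genes without overlap. Mean CPM was higher in RT_ICI for 8 members and lower for 2 (Frzb and Dkk2), without a call in either direction. Among the 8, Sfrp4, Wif1, Notum and Rspo3 had at most 22 counts each over all libraries. With no filter the median log2 fold change over all 34665 genes was also above 0, at 0.225, against 0.014 over the genes that passed the filter.

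**Figure D1:**
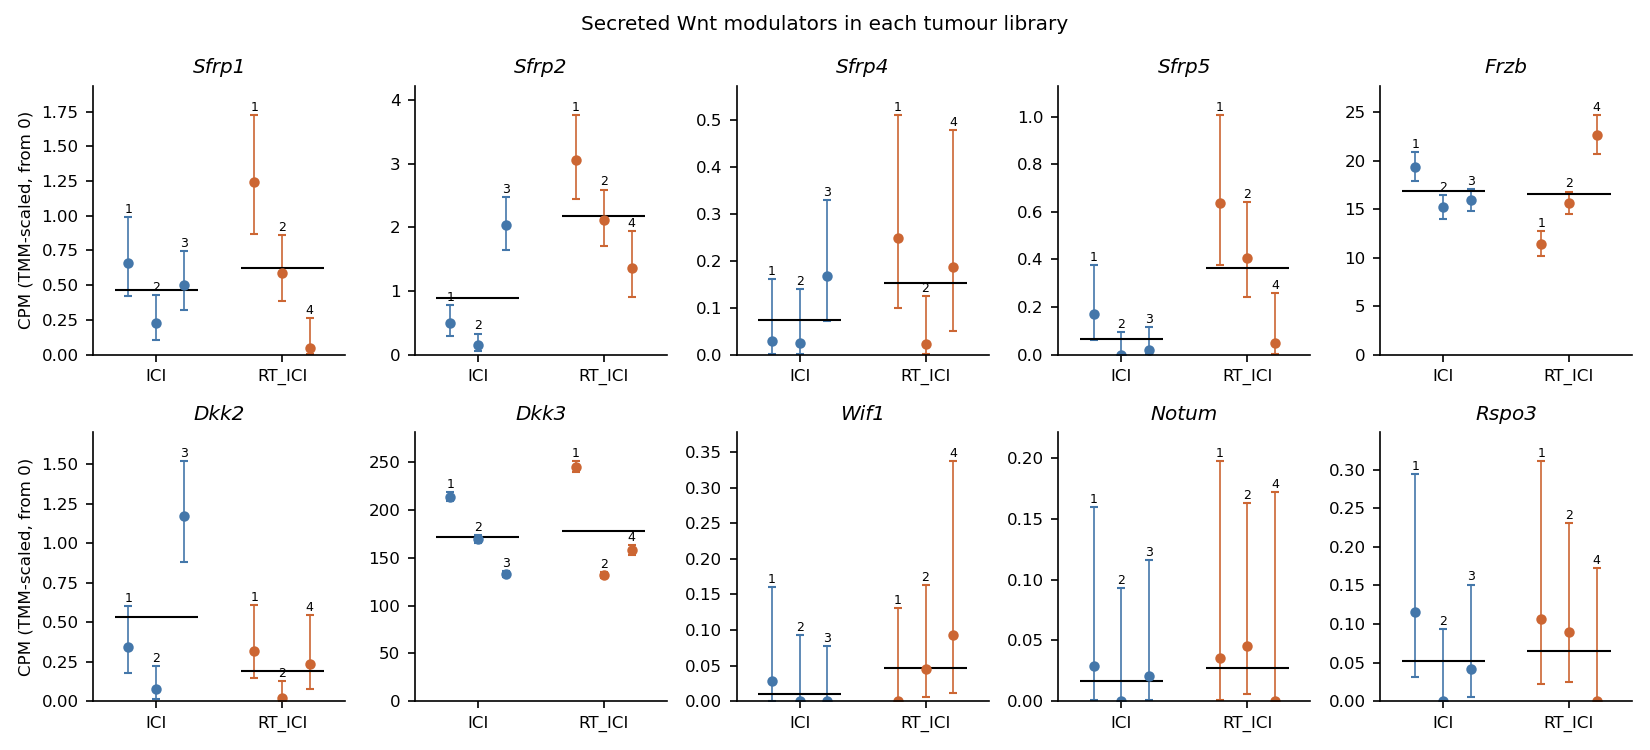
CPM of each member in each library (vertical axes start at 0 and differ between panels), by group, with the replicate number above each point, 95% Clopper-Pearson intervals of the count as bars and the group mean as a horizontal line. The ICI and RT_ICI points overlap in every panel, and for Sfrp2 the ICI replicate 3 library lies at 2.03 CPM, inside the RT_ICI range of 1.35 to 3.05.

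Sfrp2 encodes the Wnt-binding protein that names the fibroblasts in the title (chromosome 3, 83766321 to 83774316 on GRCm38, plus strand, 5 exon blocks). It was at 0.489, 0.151 and 2.03 CPM in ICI replicates 1, 2 and 3, from 17, 6 and 97 counts. In RT_ICI replicates 1, 2 and 4 it was at 3.05, 2.12 and 1.35 CPM, from 86, 94 and 29 counts. ICI replicates 1 and 2 were the lowest of the 6 libraries, and ICI replicate 3 lay between RT_ICI replicates 2 and 4, so the groups overlapped through a single library.

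The spread within ICI was larger than counting error. The 95% Clopper-Pearson interval, which covers counting error only, was 0.0554 to 0.329 CPM in ICI replicate 2 and 1.64 to 2.47 in ICI replicate 3. The highest ICI library held 13.4 times the Sfrp2 CPM of the lowest, and the highest RT_ICI library 2.25 times that of the lowest. Sfrp2 averaged 0.889 ± 1.00 CPM in the ICI group and 2.17 ± 0.850 CPM in the RT_ICI group (SD, n = 3 each).

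The fitted log2 fold change of Sfrp2 (RT_ICI minus ICI) was 1.27 with an SE of 0.81 and an adjusted p of 0.311 in edgeR. Its 95% interval ran from -0.61 to 3.16, which takes in both no difference and a large one. Leaving out ICI replicate 3 moved the log2 fold change to 2.76 (adjusted p = 0.106), and leaving out ICI replicate 2 moved it to 0.77 (adjusted p = 0.461). The unadjusted p in edgeR was 0.157 with all libraries, 0.0038 without ICI replicate 3 and 0.283 without ICI replicate 2. Adjusted values are not comparable between these fits: without ICI replicate 3, 2 genes were called higher and 0 lower of all 17377 tested. The antisense gene Gm26771 covers 16.1% of the Sfrp2 exons and held 2 counts over all 6 libraries.

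**Figure D2:**
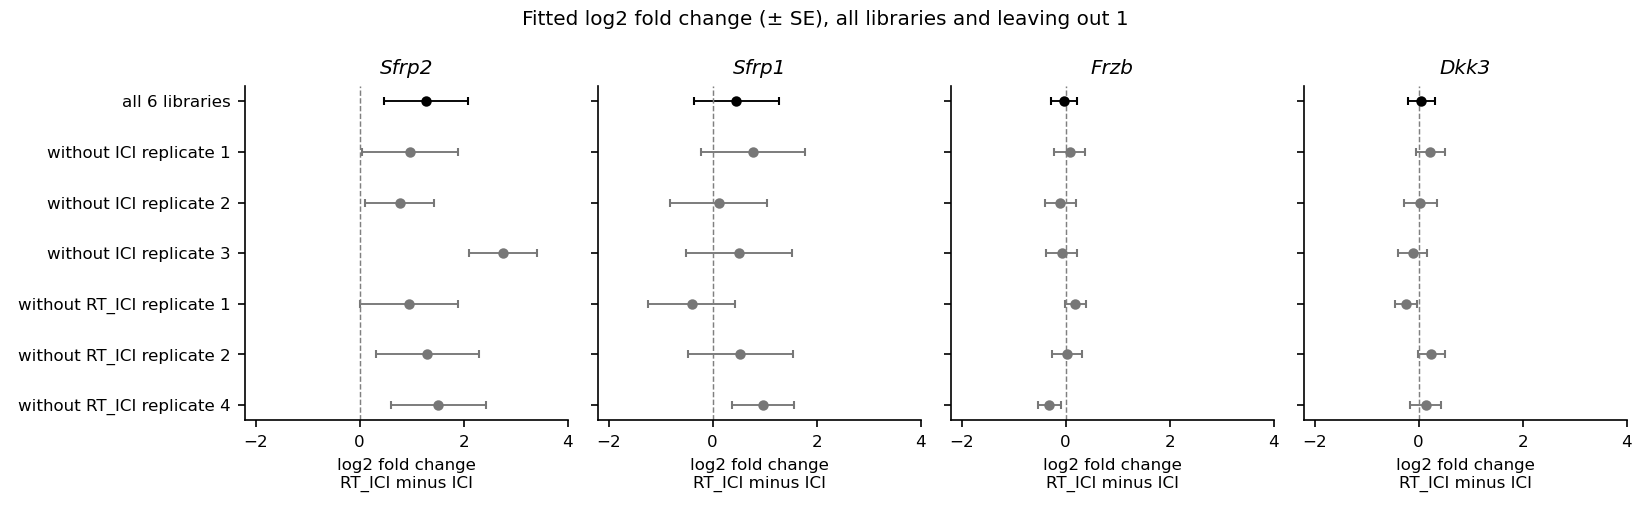
Fitted log2 fold change (RT_ICI minus ICI, horizontal axis, bars ± SE) of the 4 tested members with all 6 libraries (black) and with each library left out in turn (grey). Sfrp2 runs from 0.77 to 2.76, with the highest value without ICI replicate 3, while Sfrp1, Frzb and Dkk3 fall on both sides of 0.

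In a bulk sample, fewer cells of a type and less RNA per cell cannot be told apart, so Sfrp2 was set beside 12 fibroblast markers. Their summed level was 533, 261 and 993 CPM in ICI replicates 1, 2 and 3 and 925, 622 and 502 in RT_ICI replicates 1, 2 and 4. ICI replicate 2 was the lowest library for both the fibroblast sum and Sfrp2, and ICI replicate 3 had the highest fibroblast sum of all 6. Of the 12 markers 0 were called and 4 were at an unadjusted p under 0.05 in edgeR, a share near the 31.5% of all tested genes, with a median log2 fold change of 0.36 against 0.014 over all tested genes.

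The fibroblast markers did not all share the profile of Sfrp2. Dpt, which encodes the matrix protein dermatopontin, was at 0.891, 0.654 and 5.16 CPM in ICI and 8.80, 4.91 and 2.75 in RT_ICI, the same order of libraries as Sfrp2 except that ICI replicate 3 ranked above RT_ICI replicate 2. Col1a1, a chain of type I collagen, was at 104, 38.4 and 274 CPM in ICI and 248, 151 and 128 in RT_ICI, and was highest in ICI replicate 3. Pearson's r with Sfrp2 on log2 CPM over the 6 libraries, given as a description, was 0.97 for Dpt, 0.95 for the matrix metalloproteinase Mmp2 and 0.94 for Col1a1. It was 0.35 for the activated fibroblast protease Fap, -0.13 for the matrix protein Fbln1 and -0.18 for the surface glycoprotein Thy1. The points of these correlations are the same 6 libraries, and the 12 markers are not independent of each other.

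**Figure D3:**
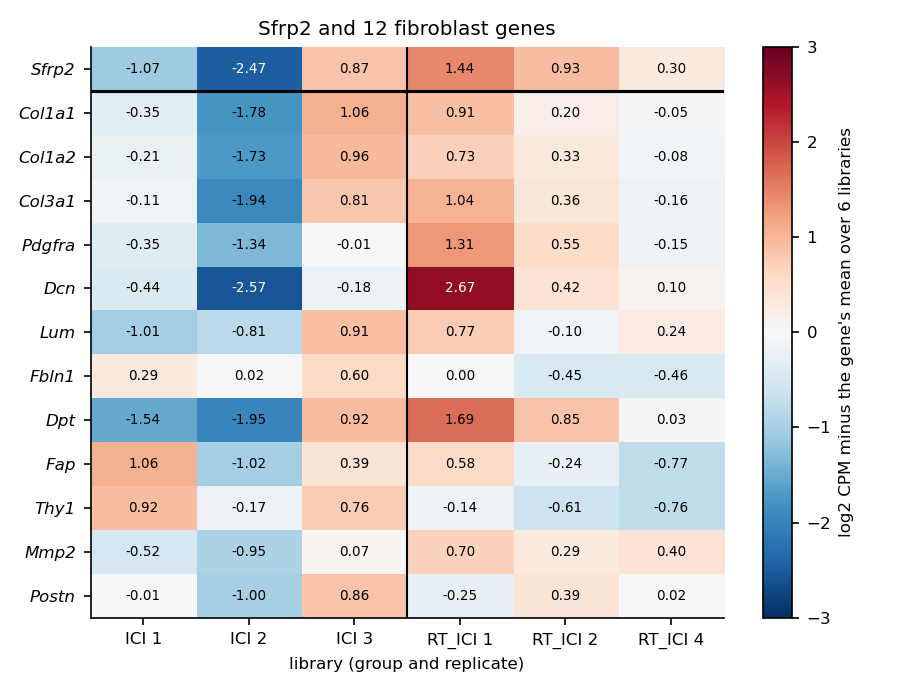
log2 CPM of Sfrp2 (top row) and 12 fibroblast markers in each library (columns), less each gene's own mean over the 6 libraries (colour and printed values, log2 scale). Sfrp2 lies at -1.07 and -2.47 in ICI replicates 1 and 2 and above its mean in the other 4 libraries, and Fap and Thy1 are above their means in ICI replicate 1.

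Relative to the mean of the 12 markers, Sfrp2 was higher in each RT_ICI library than in any ICI library, but this did not hold against each marker. Dcn, which encodes the matrix proteoglycan decorin, was at 5.58, 1.23 and 6.71 CPM in ICI and 48.4, 10.2 and 8.12 in RT_ICI, without overlap. Its log2 fold change of 2.30 (SE 0.95, adjusted p = 0.166, edgeR) was above the 1.27 of Sfrp2. Those of Dpt (1.29) and the growth factor receptor gene Pdgfra (1.18) were close to it, while Fbln1 (-0.61) and Thy1 (-1.06) lowered the mean in RT_ICI, and none of these markers was called. For the list as a whole, the difference between log2 CPM of Sfrp2 and the mean log2 CPM of the 12 markers was -4.70, -5.02 and -3.55 in ICI replicates 1, 2 and 3. It was -3.21, -3.06 and -3.38 in RT_ICI replicates 1, 2 and 4, so ICI replicate 3 came close to the lowest RT_ICI library. The ICI libraries averaged -4.42 ± 0.77 and the RT_ICI libraries -3.21 ± 0.16 (SD, n = 3 each). The difference was 1.21, and the exact permutation test (2-sided) gave p = 0.1, which is the lowest value 6 libraries in 2 groups of 3 can reach. Against the collagen genes Col1a1, Col1a2 and Col3a1 alone the difference was 1.05, also at p = 0.1 in the exact permutation test. The adipocyte sum was lowest in the same pair of libraries as this difference, ICI replicates 1 and 2, and its part in the result was not tested.

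Sfrp1, a relative of Sfrp2 with the same receptor-like domain (chromosome 8, 23411502 to 23449632), was at 0.661, 0.226 and 0.502 CPM in ICI and 1.24, 0.586 and 0.0467 in RT_ICI. RT_ICI held both the highest library (replicate 1, 35 counts) and the lowest (replicate 4, 1 count). Its log2 fold change was 0.46 with an SE of 0.82 (adjusted p = 0.728, edgeR), and -0.41 without RT_ICI replicate 1. The order of libraries differed from that of Sfrp2: RT_ICI replicate 4, with 29 counts of Sfrp2, held a single count of Sfrp1.

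Sfrp5, another Wnt-binding family member best known from fat tissue (chromosome 19, 42197971 to 42202252), had 6, 0 and 1 counts in ICI and 18, 18 and 1 in RT_ICI. It was therefore high in RT_ICI replicates 1 and 2 (0.638 and 0.406 CPM) and at or under the floor of 3 counts in 3 of the other 4 libraries. With no filter its log2 fold change was 2.48 (adjusted p = 0.127, edgeR). RT_ICI replicates 1 and 2 were also the libraries with the highest skeletal muscle sums, 2169 and 956 CPM against at most 209 elsewhere, while the adipocyte sum of RT_ICI replicate 4 (67.6 CPM) lay between theirs. The part of these cells in the Sfrp5 counts was not tested.

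Sfrp4, the remaining short Frizzled-related gene (chromosome 13, 19623104 to 19632994), had 1, 1 and 8 counts in ICI and 7, 1 and 4 in RT_ICI. Its 22 counts over all libraries do not allow a difference to be detected at this depth. Most of them came from ICI replicate 3 and RT_ICI replicates 1 and 4.

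Frzb (chromosome 2, 80411970 to 80447625), which encodes Sfrp3, was the most abundant of the 5 genes of its family. It was at 19.3, 15.2 and 15.9 CPM in ICI and 11.4, 15.6 and 22.6 in RT_ICI, so RT_ICI held the lowest and the highest library. Means were 16.8 ± 2.21 and 16.6 ± 5.67 CPM (SD, n = 3 each). The log2 fold change was -0.03 with a 95% interval of -0.61 to 0.56 (adjusted p = 0.958, edgeR). Its profile did not follow the fibroblast markers. RT_ICI replicate 1, with the second highest fibroblast sum and the highest mean log2 CPM of the markers, had the lowest Frzb.

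Dkk3 (chromosome 7, 112116017 to 112159057), the divergent dickkopf gene, was by far the most abundant member. It was at 214, 169 and 133 CPM in ICI and 245, 132 and 158 in RT_ICI, from 3385 to 7444 counts a library. Libraries of the groups were interleaved, and differences within a group were far beyond counting error, with an interval of 209 to 219 CPM in ICI replicate 1 against 130 to 136 in ICI replicate 3. Means were 172 ± 40.6 and 178 ± 59.4 CPM (SD, n = 3 each), a log2 fold change of 0.05 with a 95% interval of -0.55 to 0.65 (adjusted p = 0.912, edgeR).

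Dkk2 (chromosome 3, 132085292 to 132180304), the dickkopf protein that binds Lrp5 and Lrp6, had 12, 3 and 56 counts in ICI and 9, 1 and 5 in RT_ICI. ICI replicate 3 alone held 56 of its 86 counts, at 1.17 CPM (95% Clopper-Pearson interval 0.884 to 1.52), against 0.0225 to 0.345 CPM in the other 5 libraries. The remaining ICI and RT_ICI libraries overlapped. ICI replicate 3 thus stood high for Sfrp2 and Dkk2 but not for Dkk3, for which it was the lowest ICI library. With no filter the log2 fold change of Dkk2 was -1.63 (adjusted p = 0.390, edgeR).

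Wif1, Notum and Rspo3 were at the limit of detection. Wif1 (chromosome 10, 121033960 to 121100650) had 1 count in ICI and 4 in RT_ICI over 3 libraries each, with 0 counts in 3 of the 6 libraries. Notum (chromosome 11, 120653788 to 120661175) had 2 and 3 counts, and its antisense partner Notumos, which covers 29.4% of its exons, had 8 over all libraries. Rspo3 (chromosome 10, 29452416 to 29535867), which protects Frizzled receptors from Znrf3 and Rnf43, had 6 and 7 counts. The one-sided limit that a count of 0 allows is about 3 counts a library, which is 0.0627 to 0.140 CPM here, and the 2-sided 95% Clopper-Pearson bounds of libraries with 0 counts were higher, at 0.0771 to 0.172 CPM, so differences of these genes were not detectable at this depth.

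To compare levels between genes, CPM was divided by the length of the longest transcript in kilobases. On that scale Dkk3 averaged 51.2 ± 12.1 in the ICI libraries and 53.1 ± 17.7 in the RT_ICI libraries (SD, n = 3 each). Its lowest library (39.2) lay above the highest of Frzb (7.19). Frzb was at 5.34 ± 0.702 and 5.26 ± 1.80 CPM per kilobase, and its lowest library (3.63) lay above the highest of Sfrp2 (1.52). Over all libraries Dkk3 made up 89.0% and Frzb 9.04% of the summed level per kilobase of the 10 members. Sfrp2 came next, at 0.444 ± 0.4996 and 1.09 ± 0.424 CPM per kilobase. In RT_ICI each Sfrp2 library lay above every Sfrp1 library, whereas in ICI the 2 genes overlapped. Sfrp1, Sfrp5 and Dkk2 followed, at means over all libraries of 0.124, 0.113 and 0.0975 CPM per kilobase with overlapping libraries, so their order is not set by these data. Sfrp4, Rspo3, Wif1 and Notum were at 0.0279 or less and overlapped each other.

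**Figure D4:**
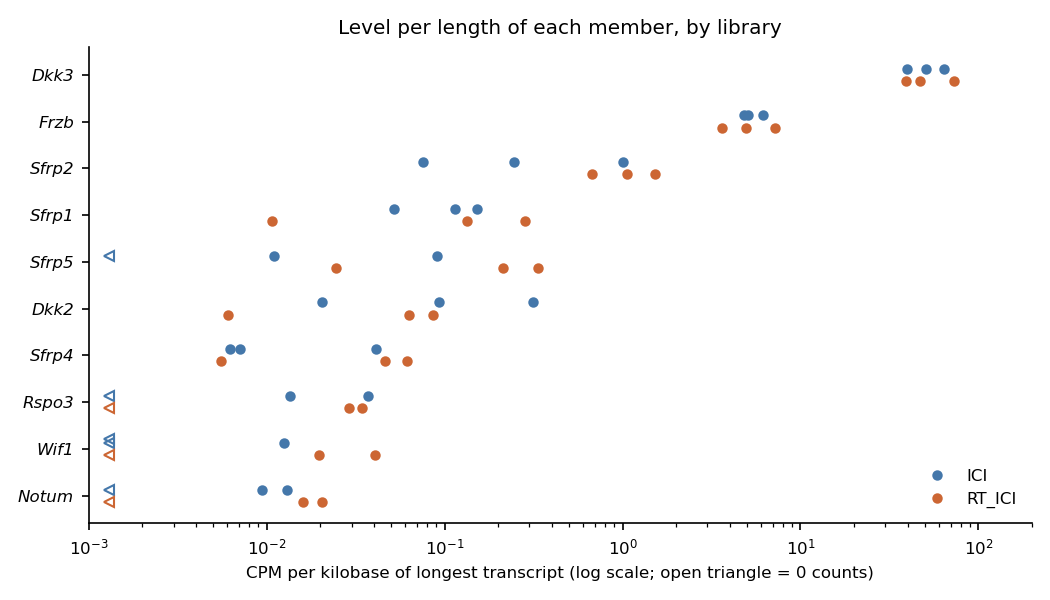
CPM per kilobase of longest transcript (horizontal log axis) of each member in each library, with ICI in blue and RT_ICI in orange, and libraries with 0 counts as open triangles at the left edge. Dkk3 at 39.2 to 73.0 and Frzb at 3.63 to 7.19 stand apart from all other members, and the Sfrp2 libraries overlap those of Sfrp1, Sfrp5 and Dkk2.

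Genes with profiles most like those of the members were ranked by Pearson's r of log2 CPM over the 6 libraries among 11076 genes with a symbol and a mean of at least 5 CPM. For Sfrp2 the highest were Osmr (r = 0.985), the receptor subunit for oncostatin M, Eogt (0.979), Asxl1 (0.975), Zfp341 (0.974) and Mertk (0.970), a receptor for the clearance of dying cells. By Spearman's rho Osmr was at 1.0 and Eogt and Zfp341 at 0.943, but Asxl1 was at 0.771 and Mertk at 0.714. Osmr was at 2.88, 1.21 and 5.79 CPM in ICI and 10.96, 6.42 and 5.09 in RT_ICI, and, like Sfrp2, it was lowest in ICI replicates 1 and 2 and was not called (adjusted p = 0.188, edgeR). For Frzb they were L1cam (0.976), Capn2 (0.959) and Pianp (0.944), and for Dkk3 Anxa6 (0.990), Slc25a11 (0.988) and Plbd2 (0.983). With 6 libraries and this many genes many genes reach a high r: 12 genes reached r of 0.95 with Sfrp2, 2 with Frzb and 27 with Dkk3.

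The rest of the Wnt pathway was read from lists by role, in which 84 of 87 genes that are not members were in the table and 59 were tested. In all, 1 rose and 5 fell, or 10.2% of those tested against 9.18% of all genes, with a median log2 fold change of -0.13 against 0.014. Among 22 receptors and receptor regulators, 17 were tested, 0 rose and 3 fell, with a median of -0.48. Of all tested genes 4.72% were called lower. In edgeR 8 of the 17 were at an unadjusted p under 0.05, against 31.5% of all tested genes. The counts of called pathway genes followed the number of calls over all genes when a library was left out. Without ICI replicate 1 or RT_ICI replicate 2, 0 pathway genes and 0 of all genes were called. Without ICI replicate 3, 0 pathway genes were called, beside 2 higher and 0 lower of all genes, and without RT_ICI replicate 4, 0 beside 81 and 16. Without ICI replicate 2, 0 rose and 2 fell, beside 234 and 291 of all genes, and without RT_ICI replicate 1, 3 rose and 9 fell, beside 1564 and 1545. The log2 fold changes moved less, from -1.07 to -0.85 for Fzd7, -0.71 to -0.57 for Lrp6 and -0.65 to -0.56 for Dvl2. The share of mitochondrially encoded genes given above separates the groups as these falls do. With those genes left out before scaling, 1 pathway gene rose and 5 fell, as with them. Their removal hardly moved the fit, with Fzd7 at -0.978 against -0.977, so it cannot show whether that share has a part in the falls. That part was not tested.

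Fzd7, a Frizzled receptor of the kind that Sfrp proteins resemble (chromosome 1, 59482424 to 59486955), was at 99.9, 92.8 and 126 CPM in ICI and 50.5, 51.0 and 60.4 in RT_ICI. Every RT_ICI library was below every ICI library, and it fell 1.97-fold (log2 fold change -0.98, SE 0.15, adjusted p = 0.0260, edgeR). Lrp6 (chromosome 6, 134446476 to 134566965), the co-receptor bound by Dkk2, fell 1.55-fold from 151 ± 15.2 to 97.7 ± 6.90 CPM (SD, n = 3 each, adjusted p = 0.0348, edgeR). Its relative Lrp5 (chromosome 19, 3584828 to 3686564) fell 1.51-fold from 104 ± 3.74 to 68.6 ± 12.04 CPM (adjusted p = 0.0467, edgeR). After a correction for transcript length and GC content, which left 261 higher and 349 lower calls over all genes, Fzd7 was at adjusted p = 0.0342. Lrp6 was then at a log2 fold change of -0.45 (-0.63 without the correction) and adjusted p = 0.0766, and Lrp5 at -0.59 (-0.60 without it) and 0.0777. Lrp5 also missed the threshold with upper-quartile scaling (adjusted p = 0.0649) and without robust fitting (0.0501). Fzd1, a named receptor whatever its value, was at 1.65 ± 0.512 and 1.69 ± 0.785 CPM and was not called (adjusted p = 0.958).

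Of 20 intracellular components, 20 were tested, 0 rose and 1 fell, with a median of -0.09. In edgeR 7 of the 20 were at an unadjusted p under 0.05, against 31.5% of all tested genes. Dvl2, a dishevelled scaffold below the receptors, fell 1.53-fold from 27.7 ± 1.99 to 18.1 ± 0.985 CPM (SD, n = 3 each, adjusted p = 0.0387, edgeR). It was at adjusted p = 0.0526 with upper-quartile scaling, and reads of the overlapping antisense gene Acadvl, which covers 18.3% of its exons, cannot be told apart from its own without strand information. Ctnnb1, which encodes beta-catenin, was at 890 ± 73.1 and 597 ± 105 CPM with no overlap between the groups. It was not called in edgeR (adjusted p = 0.0669), although DESeq2 called it (0.0140), beside 1746 higher and 1703 lower of all 16924 genes. The antisense gene Ulk4 covers 14.6% of the Ctnnb1 exons, and the limit on strand given for Dvl2 holds.

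Of 17 genes listed as targets of Wnt signalling, 11 were tested, 1 rose and 1 fell, with a median of -0.42. In edgeR 3 of the 11 were at an unadjusted p under 0.05, against 31.5% of all tested genes. Ccn5 (also Wisp2), which encodes a matricellular protein of mesenchymal cells (chromosome 2, 163820861 to 163833146), was at 0.805, 0.302 and 0.732 CPM in ICI and 5.25, 2.79 and 1.45 in RT_ICI. It rose 5.15-fold (log2 fold change 2.37, SE 0.57, adjusted p = 0.0435, edgeR). Like Sfrp2 it was highest in RT_ICI replicate 1 and lowest in ICI replicate 2, but it was not high in ICI replicate 3. Ccn5 was at 1.99 after the length and GC correction (adjusted p = 0.0725) and at 2.32 with limma-voom (0.0531), so the call ended while the log2 fold change stayed of similar size. Ccnd1, the cell cycle gene of cyclin D1 (chromosome 7, 144929931 to 144939925), fell 1.61-fold from 65.9 ± 4.83 to 40.9 ± 5.69 CPM (SD, n = 3 each, adjusted p = 0.0346, edgeR). LTO1, on the opposite strand, covers 23.4% of its exons, and the same limit on strand holds. With the replicate number as a block in edgeR, Ccnd1 was at -0.77 and missed the threshold (adjusted p = 0.0601). Lrp6, Lrp5 and Dvl2 missed it there too (0.119, 0.0757 and 0.181), while Fzd7 and Ccn5 stayed called (0.0347 and 0.0145). Axin2, a widely used readout of beta-catenin activity, was at 5.34 ± 0.608 and 3.85 ± 0.505 CPM and was not called (adjusted p = 0.210).

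Ligands and other secreted modulators gave no call. Of 21 ligand and ligand secretion genes, 7 were tested and 0 called, 2 being at an unadjusted p under 0.05 in edgeR against 31.5% of all genes, with a median log2 fold change of 0.04. Wnt5a was at 0.831 ± 0.512 and 0.495 ± 0.402 CPM (SD, n = 3 each, adjusted p = 0.483, edgeR). Of 15 secreted modulators outside the 10 members, 8 were tested and 0 called, again with 2 at an unadjusted p under 0.05 in edgeR, and the median was 0.20. Among these Dkk4, chosen after its values were seen, was at 1.29, 0.579 and 0.523 CPM in ICI and 2.98, 2.16 and 2.01 in RT_ICI, without overlap and at adjusted p = 0.0582 in edgeR. Cer1, chosen in the same way, went in the other direction, at 3.80, 2.87 and 6.40 CPM in ICI and 1.35, 1.71 and 2.05 in RT_ICI. It too was without overlap, at adjusted p = 0.0570 in edgeR.

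**Figure D5:**
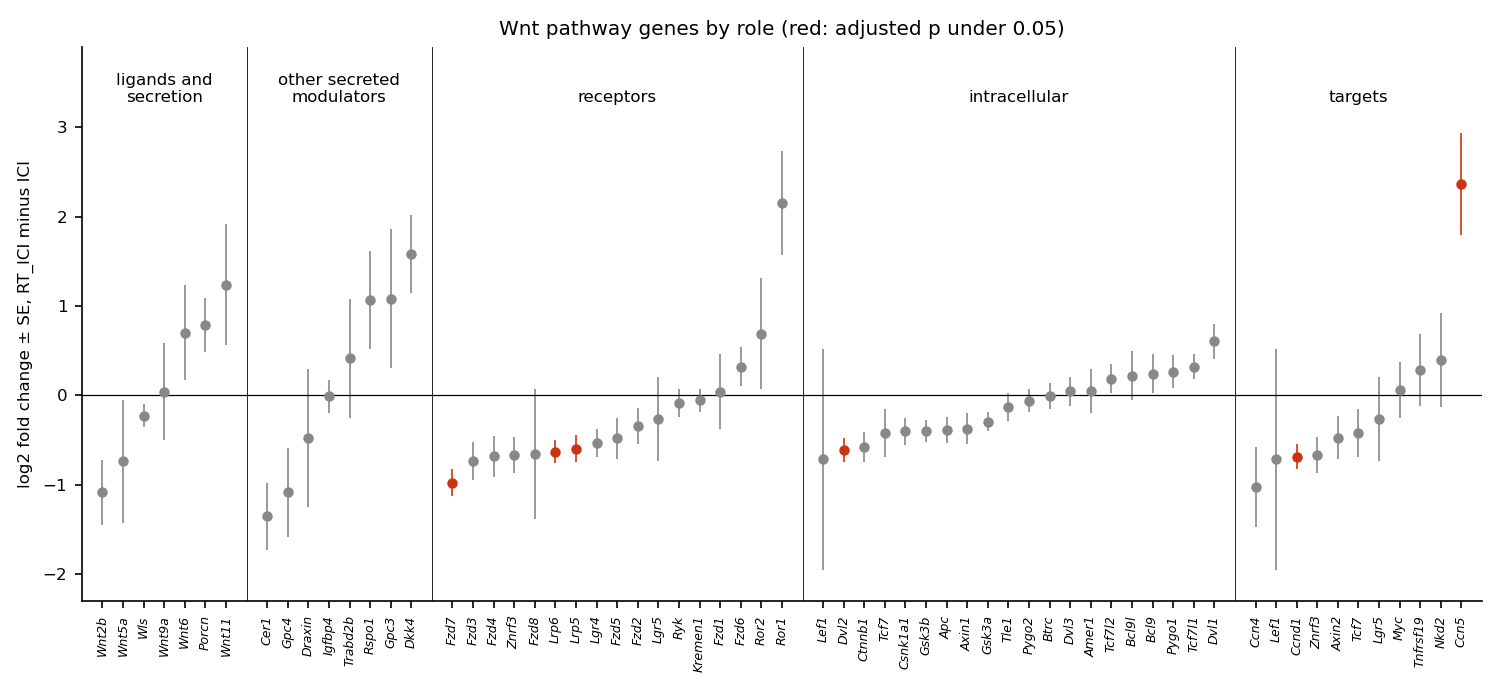
Fitted log2 fold change (RT_ICI minus ICI, vertical axis, bars ± SE) of the tested Wnt pathway genes grouped by role, with genes at an adjusted p under 0.05 in red; a gene on 2 lists is drawn in each. Fzd7, Lrp6, Lrp5, Dvl2 and Ccnd1 are the called genes below 0 and Ccn5 at 2.37 is the called gene above it.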

How the data were processed

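RNA of 6 tumour libraries was sequenced, and the deposited table holds raw counts, whole numbers for each gene, made by the authors. HISAT2, GRCm38 and mm10 are named per the submitters' processing notes. For the counting tool, annotation release, strand setting and versions, nothing is given in the sources used here. Counts were filtered with filterByExpr, scaled by TMM and tested with the robust quasi-likelihood test of edgeR 4.0.16 (R 4.3.3), with Benjamini-Hochberg adjustment over all 16924 tested genes and a threshold of 0.05. Intervals of a log2 fold change use the moderated t scale of that fit. log2 CPM used a prior count of 2. The length and GC correction subtracted, per library, a natural spline of each (5 degrees of freedom) fitted to deviations from each gene's mean. Simulated counts were used to check the test.

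Positions, lengths and exon overlaps came from GENCODE M21 on GRCm38. Of the members, 3 shared a stretch of at least 200 bases at 95% identity with another gene (blastn 2.17.0): Notum, Rspo3 and Sfrp2, each with its antisense gene. Wisp1 and Wisp2 were matched to Ccn4 and Ccn5 through RefSeq synonyms. Wnt3a, Rspo4 and Sp5 are not analysed here.

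The members and lists were chosen with earlier results of these data known. Named were all members, the called pathway genes (at most 4 a list), Wnt5a, Fzd1, Lrp6, Ctnnb1 and Axin2, and the 5 genes most like Sfrp2 or 3 most like other members above 5 CPM. DESeq2 1.42.0, limma 3.58.1, other scalings, filters and thresholds, a block and leaving out each library were tried. Lists of other cells are given as summed ranges in ICI and RT_ICI. Pericyte and smooth muscle genes were at 135 to 229 and 109 to 640 CPM. Des alone was at 536 of the 640 CPM in RT_ICI replicate 1, and its libraries ranked in the order of the skeletal muscle sum. Of these 10 genes, 4 had a positive and 6 a negative log2 fold change, with a median of -0.098. The other ranges were 112 to 240 and 96.8 to 326 (endothelial), 187 to 236 and 186 to 390 (macrophage), and 3.53 to 45.0 and 0.887 to 13.8 (T cell). They were 2.15 to 3.17 and 4.39 to 5.21 for keratinocyte and 810 to 829 and 1004 to 1322 for Schwann genes. For tendon and fascia they were 10.8 to 15.8 and 15.0 to 55.5, and for red cells 226 to 4481 and 110 to 454.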

Additional observations from a re-analysis of the deposited data

How the results depend on the processing

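Members were called in none of the alternatives except the replicate block. With the replicate number as a block Sfrp2 had a log2 fold change of 3.13 (adjusted p = 0.0181, edgeR), and 2.97 with the block and the length and GC correction (0.0453), so 1 member was called higher in each. By construction these fits take the difference from replicates 1 and 2, since ICI replicate 3 and RT_ICI replicate 4 have no partner. The labels give no pairing. Deviations from the group means correlated at 0.353 for replicates numbered 1 and 0.0909 for those numbered 2, against -0.320 to 0.270 for other pairs. So few pairs cannot settle whether libraries with the same number were paired, and the Sfrp2 call depends on it. Leaving out 1 library in turn, the log2 fold change ran from 0.77 to 2.76 for Sfrp2, -0.41 to 0.97 for Sfrp1, -0.31 to 0.18 for Frzb, -0.25 to 0.24 for Dkk3 and -0.39 to 0.31 for Fzd1, and Sfrp2 relative to fibroblast markers from 0.91 to 1.64.

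Uncalled values changed sign and the cause was not tested. Sfrp1, at 0.46, was at -0.061 with limma-voom, and at 1.11 with the block and 1.16 with the block and the correction. Values near 0 that changed sign were Frzb with upper-quartile scaling (0.058) and at least 1 CPM in 3 libraries (0.0053), Dkk3 with no filter (-0.016), the block (-0.083) and the block with the correction (-0.090), and Fzd1 with no filter (-0.028) and the correction (-0.055). Wnt pathway genes called higher and lower (1 and 5) were 4 and 10 with no filter, 4 and 12 with DESeq2, 4 and 13 at an adjusted p under 0.1, 2 and 5 at 1 CPM in 3 libraries, 2 and 2 with the block, 1 and 1 with the block and the correction, 0 and 4 with the correction, 1 and 3 with upper-quartile scaling and 1 and 0 with a 2-fold minimum. Calls over all genes moved too, from 754 and 799 to 1746 and 1703 with DESeq2 and 1121 and 1507 with no filter. They were 400 and 245 with the block, 212 and 127 with the block and the correction and 261 and 349 with the correction. At 1 CPM in 3 libraries they were 855 and 730, and the list counts are to be read against these. For an adjusted p under 0.1 and the 2-fold minimum no count over all genes is given, so the list counts there have no share beside them. Leaving out 1 library, the pathway counts ran from 0 to 3 and 0 to 9. Leaving out mitochondrially encoded genes before scaling, chosen after seeing the data, changed no call here. With 6 of 10 members below the filter, depth limits what can be said of them.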
